A study of Homo sapiens with 12 samples.

Results

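The 10 chemokine genes described here are CCL2, CCL3, CCL4, CCL5, CCL22, CXCL1, CXCL2, CXCL8, CXCL10 and CXCL16. They were chosen by name, with earlier results of these data known, and were found among the 60754 genes of each library by their Ensembl identifiers. They were measured by RNA sequencing of 2 human acute myeloid leukemia (AML) cell lines, HL-60 and Molm-14, cultured for 36 h with or without duocarmycin SA (DSA), a natural product that binds the minor groove and alkylates adenine bases. HL-60 cells, a promyelocyte-like line grown in IMDM, received 500 pM (high) or 112.7 pM (low) DSA. Molm-14 cells, a monocyte-like line grown in RPMI with a lower share of serum, received 100 pM (high) or 11.1 pM (low) DSA. The controls of each line are labelled as untreated, while the methods of the study name a vehicle. Each of the 6 groups has 2 libraries, 12 in all. Medium and serum differ between the lines, so any difference between the lines cannot be told apart from these. Doses differ as well, 500 pM against 100 pM at the high level, and changes compared there cannot be told apart from dose. The nearest doses are 112.7 pM in HL-60 and 100 pM in Molm-14 cells. Separate cultures are stated for the replicates neither in the labels nor in the methods. Every p-value here rests on the spread between libraries of the same group, shared over all 6 groups. That spread may be technical only.

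Chemokines are small secreted proteins that draw leukocytes along a gradient by binding receptors coupled to G proteins. CC chemokines such as CCL2 mainly attract monocytes and lymphocytes, and CXC chemokines such as CXCL8 (IL-8) attract neutrophils, whereas CXCL10 is induced by interferon and attracts activated T cells. Many of them are kept low in resting myeloid cells and are transcribed when NF-kB binds kappaB sites in their promoters. AML blasts are themselves known to secrete chemokines.

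Total expected counts per library ran from 21177424 to 63927449, and the DSA-treated HL-60 libraries were shallower than their controls. The mitochondrial genome gave 5.46% and 4.64% of counts in high-dose HL-60 libraries, against 2.22% and 2.47% in their controls, and 4.10% and 2.72% in high-dose Molm-14 libraries, against 1.47% and 1.68% in theirs. The part of this in the chemokine results was not tested. Of the markers of other cell types, MS4A1 (B cells), DCN (fibroblasts) and FCGR3A (CD16-positive monocytes) were at 0 counts in all 12 libraries, while others of the same lists, such as CD79A, COL1A1 and CD14, were present and rose at 500 pM in HL-60 cells, as given with the marker lists at the end. Because these are bulk samples, more cells that express a gene and more RNA per cell cannot be told apart. CXCL1 did not pass the filter on low counts, so 9 of the 10 genes were tested, and every count below is over these 9.

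Promoters are shown for the genes in which a kappaB motif was found. RefSeq promoter sequences on GRCh38.p14 were matched for 6 of the genes, CCL3, CCL22, CXCL1, CXCL2, CXCL8 and CXCL10, and were not matched for CCL2, CCL4, CCL5 and CXCL16. In the 250 bases before each start, both strands were searched for the kappaB consensus, for the kappaB 9-mer GGANTTTCC, which overlaps it, for the AP-1 motif TGANTCA and for the interferon response core (GAAA, any 2 bases, GAAA), and the sense strand was searched for TATAA. The kappaB consensus was found in 4 of the 6 genes and in 9.96% of 35116 promoters of the same length, and the 9-mer in 4 of the 6 genes and in 1.45% of promoters. The 5 genes with a kappaB match of either kind are shown as 150 bases each, 5′ to 3′ on the strand of the gene, from 200 to 51 bases before the start, with matches to the kappaB and AP-1 motifs in capitals.
CXCL8: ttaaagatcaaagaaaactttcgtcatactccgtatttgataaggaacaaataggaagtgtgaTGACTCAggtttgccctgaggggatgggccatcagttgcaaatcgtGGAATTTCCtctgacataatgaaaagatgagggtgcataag
CXCL1: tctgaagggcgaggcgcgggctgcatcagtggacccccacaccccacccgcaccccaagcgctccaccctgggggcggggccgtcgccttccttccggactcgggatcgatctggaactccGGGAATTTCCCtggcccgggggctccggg
CXCL2: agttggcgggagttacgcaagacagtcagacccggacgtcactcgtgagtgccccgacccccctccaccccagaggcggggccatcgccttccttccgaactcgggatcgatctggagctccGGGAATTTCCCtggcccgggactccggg
CXCL10: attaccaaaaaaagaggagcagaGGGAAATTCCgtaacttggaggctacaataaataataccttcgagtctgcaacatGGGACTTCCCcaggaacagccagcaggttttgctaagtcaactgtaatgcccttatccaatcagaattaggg
CCL22: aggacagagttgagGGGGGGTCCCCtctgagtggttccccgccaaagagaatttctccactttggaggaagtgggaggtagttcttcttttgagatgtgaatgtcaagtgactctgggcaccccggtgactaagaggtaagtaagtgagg

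These windows lie at chr4:73740369-73740518 on the plus strand for CXCL8, chr4:73869193-73869342 on the plus strand for CXCL1 and chr4:74099246-74099395 on the minus strand for CXCL2. The windows of CXCL10 and CCL22 lie at chr4:76023548-76023697 on the minus strand and at chr16:57358583-57358732 on the plus strand. Over the full 250 bases before each start, which reach beyond the windows shown, CXCL1 and CXCL2 share an unbroken run of 42 bases. The longest run that CXCL1 shares with CXCL8 there is 9 bases. All positions are counted from the RefSeq start. For CXCL8 that start lies downstream of the GENCODE gene start given below, which directly follows the window shown. An AP-1 match lay from −137 to −131 of CXCL8, as in 6.57% of promoters, and an interferon response core from −221 to −212 of CXCL10, before the window shown, as in 3.02% of promoters. No kappaB match was found in the 250 bases of CCL3. A TATAA match was found for CCL3 and CXCL8, as in 13.6% of promoters. A match describes the letters only and shows no binding in these cells.

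By GENCODE release 44 on hg38, CXCL8 (chr4:73740519-73743716), CXCL1 (chr4:73869393-73871308), CXCL2 (chr4:74097040-74099196) and CXCL10 (chr4:76021118-76023497) lie on chromosome 4, where CXCL1 is 126 kb from CXCL8 and 226 kb from CXCL2. CCL2 (chr17:34255274-34257208), CCL5 (chr17:35871491-35880793), CCL3 (chr17:36088256-36090169), CCL4 (chr17:36103827-36105621) and CXCL16 (chr17:4733533-4739928) lie on chromosome 17, with CCL3 and CCL4 only 13.7 kb apart, and CCL22 (chr16:57358783-57366189) on chromosome 16. Counts are over whole genes, exons of all transcripts together. The sources used here do not say whether counting was stranded. MED11 overlaps CXCL16 on the other strand, and ART3 overlaps CXCL10. Reads from a stretch that both genes of such a pair share may therefore be counted for either. These are overlaps of gene spans, and overlap of exons was not examined. In HL-60 controls MED11 had 164 and 345 reads, while CXCL16 had 1 and 2. CCL3 and CCL4 have near-identical copies, CCL3L3 and CCL4L2, whose reads can be shared with theirs. The antisense RNA CCL3-AS1 had at most 1 count in any library.

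The chemokine genes were expressed at very different levels in the controls of the 2 lines. In TPM, which is per transcript length and so allows genes to be compared, the 10 genes summed to 566 and 461 in HL-60 controls and to 72.6 and 71.6 in Molm-14 controls. CXCL8 took 48.6% and 44.8% of that sum and CCL2 39.5% and 42.9% in HL-60 controls, whereas CCL5 took 76.1% and 76.0% and CCL3 13.7% and 12.3% in Molm-14 controls. In HL-60 controls CXCL8 (275 and 207 TPM) and CCL2 (224 and 198 TPM) stood above CCL4 (40.1 and 29.5 TPM), CCL5 (20.7 and 22.5 TPM) and CCL3 (6.19 and 4.43 TPM), with the ranges of CXCL8 and CCL2 overlapping. In Molm-14 controls CCL5 (55.3 and 54.4 TPM) stood above CCL3 (9.93 and 8.81 TPM) and CXCL8 (2.88 and 4.71 TPM), followed by CXCL10 (1.88 and 1.49 TPM) and CXCL16 (1.18 and 1.37 TPM), whose values did not overlap. CCL2 and CCL4 were at most 0.57 TPM there.

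Of the 9 tested genes, 4 were higher by over 2-fold in HL-60 than in Molm-14 controls, at an adjusted p under 0.05, and 3 were lower, as were 16.5% and 20.6% of the 13422 genes tested. By adjusted p alone 4 were higher and 4 lower, as were 43.9% and 40.1% of all genes tested. CCL2, the main attractant of monocytes, had 114 and 101 CPM (counts relative to the library total, scaled by TMM factors) in HL-60 controls and 0.316 and 0.149 CPM in Molm-14 controls, which is 10 and 5 reads (log2 fold change 8.84, SE 0.167, adjusted p = 1.37e-19, edgeR), and the difference was 9.45 without Molm-14 control replicate 1. CCL4, an attractant of monocytes and T cells, had 18.4 and 13.8 CPM in HL-60 controls, against a single read in each Molm-14 control (8.85, SE 0.411, and 8.05 with its copy added). CXCL8, the neutrophil attractant, had 295 and 223 CPM in HL-60 controls and 3.16 and 4.99 CPM in Molm-14 controls (5.98, SE 0.187). CCL22, which binds CCR4, had 7 and 21 reads in HL-60 controls and 0 in Molm-14 controls, at least 2.95-fold higher when each library at 0 is set to its floor of 3 counts.

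The reverse order held for the genes led by CCL5, which binds CCR1 and CCR3. CCL5 had 19.4 and 21.1 CPM in HL-60 controls and 55.3 and 53.3 CPM in Molm-14 controls (log2 fold change −1.42, SE 0.058, adjusted p = 2.1e-14, edgeR). CXCL16, a membrane-bound chemokine and scavenger receptor, had 1 and 2 reads in HL-60 controls and 47 and 56 reads in Molm-14 controls (−5.51, SE 0.444, and −7.94 thinned to the smallest library). CXCL10 had 0 reads in both HL-60 controls and 56 and 46 reads in Molm-14 controls, at least 23.9-fold lower in HL-60. CCL3 was lower by less than 2-fold (−0.96, SE 0.168, adjusted p = 3.19e-05), at 3.35 and 2.60 CPM in HL-60 and 5.85 and 5.50 CPM in Molm-14 controls. CXCL2 did not pass the test (−0.45, SE 0.443, adjusted p = 0.345), with 10 and 17 reads in HL-60 and 16 and 9 reads in Molm-14 controls, ranges that overlap. Control replicate 1 of Molm-14 carried much of that difference, which was 0.06 without it.

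**Figure D1:**
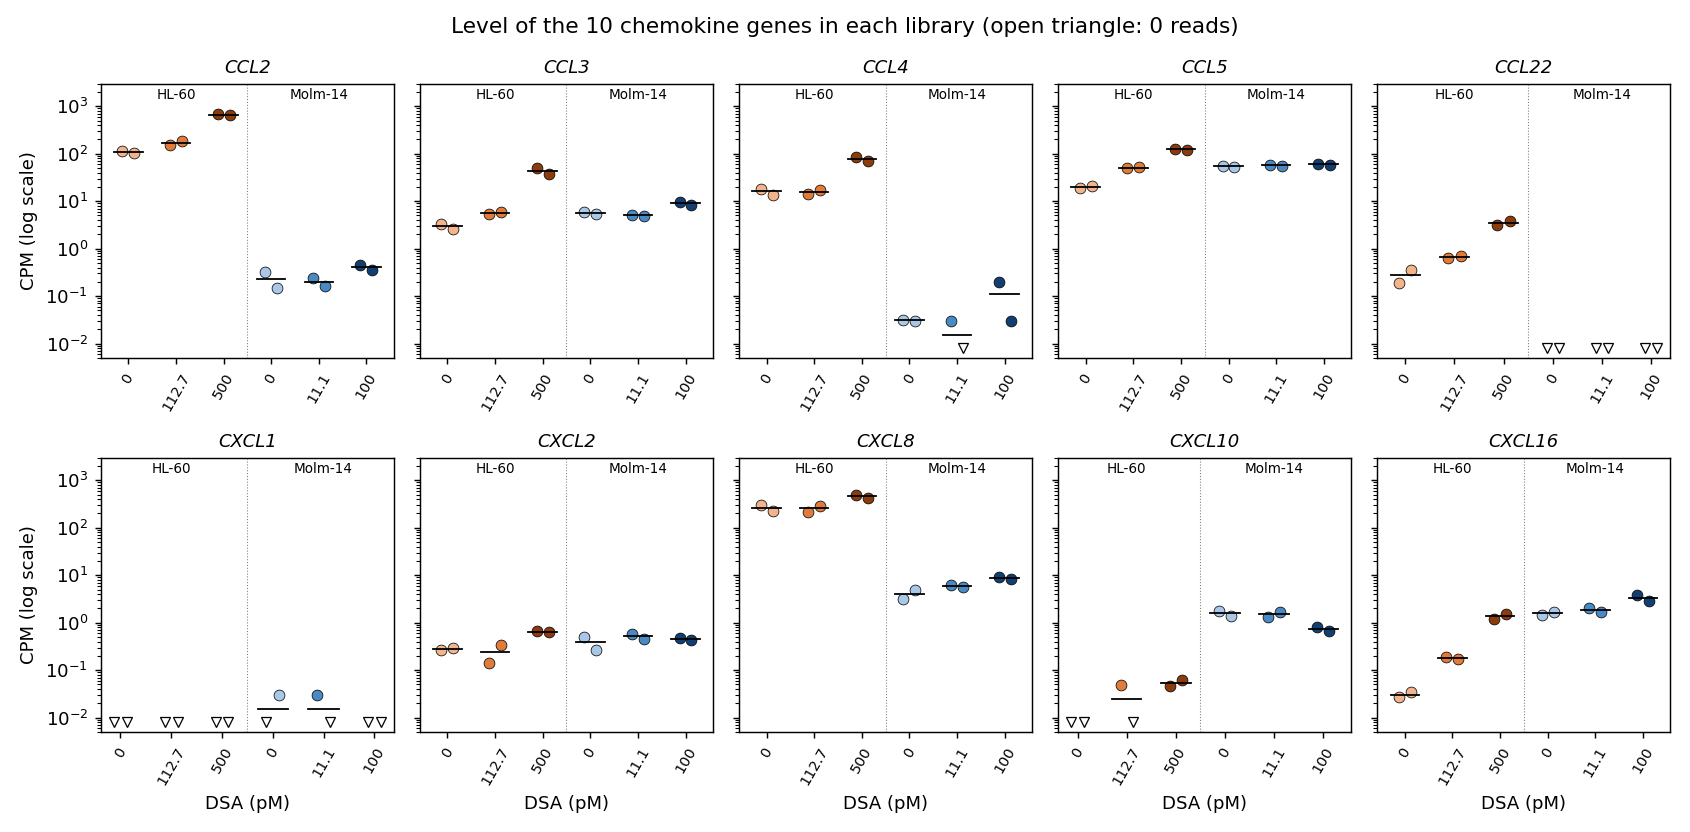
CPM of each of the 10 chemokine genes (log scale) against DSA dose in pM, with HL-60 cells on the left and Molm-14 cells on the right of each panel. Each point is a library, each bar the mean of 2 libraries, and an open triangle a library with 0 reads. In HL-60 cells CCL2, CCL3, CCL4, CCL5, CCL22 and CXCL16 stand highest at 500 pM, whereas in Molm-14 cells CCL5 stays between 53.3 and 61.3 CPM at every dose and CXCL10 is lowest at 100 pM.

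At 500 pM DSA, HL-60 cells had more RNA of every tested chemokine gene. All 9 passed the test upwards, but CXCL10 did so on 1 and 2 reads at 500 pM against 0 in both controls, so 8 rest on more than the floor of 3 counts. Of those 8, 7 were higher by over 2-fold, and 8 with CXCL10 counted. Across all genes tested, 35.8% passed upwards and 37.8% downwards (73.6% in all), and 16.5% were higher and 2.05% lower by over 2-fold. The median log2 fold change of the 8 genes was 2.62, and that of all genes tested was 0. The summed level of the 10 genes was 2281 and 2152 TPM at 500 pM, against 566 and 461 TPM in the controls.

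CCL2 became the leading chemokine transcript of HL-60 cells. It had 114 and 101 CPM in the controls, 156 and 184 CPM at 112.7 pM and 686 and 653 CPM at 500 pM, with no overlap between doses. Its log2 fold change at 500 pM was 2.64 (SE 0.062, adjusted p = 4.94e-17, edgeR), and at 112.7 pM it was 0.67 (SE 0.062, adjusted p = 7.39e-08). CCL2 took 59.5% and 61.9% of the summed chemokine TPM at 500 pM, against 39.5% and 42.9% in the controls. Among all genes tested it ranked 107 by TPM in both high-dose libraries, against 600 and 689 in the controls.

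The neighbouring genes CCL3 and CCL4, whose proteins (MIP-1 alpha and MIP-1 beta) are secreted by activated macrophages, rose by different amounts. CCL3 had 3.35 and 2.60 CPM in HL-60 controls, 5.45 and 5.98 CPM at 112.7 pM and 49.1 and 36.9 CPM at 500 pM. Its log2 fold change was 3.87 (SE 0.135, adjusted p = 1.13e-14, edgeR) at 500 pM and 0.98 (SE 0.177, adjusted p = 1.35e-04) at 112.7 pM, and the 3 dose groups did not overlap. CCL4 had 18.4 and 13.8 CPM in the controls, 14.1 and 17.4 CPM at 112.7 pM and 83.8 and 68.8 CPM at 500 pM. The change of CCL4 was 2.26 (SE 0.114, adjusted p = 2.14e-12) at 500 pM, while at 112.7 pM its range overlapped that of the controls and it did not pass (0.01, SE 0.135, 95% interval −0.26 to 0.27, adjusted p = 0.987).

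Their copies gave like values at 500 pM. CCL3L3 had 399 and 500 reads at 500 pM and 92 and 78 reads in HL-60 controls (log2 fold change 3.23, SE 0.184), and CCL4L2 had 802 and 1020 reads against 435 and 447 reads (1.86, SE 0.154). The copies CCL3L1 and CCL4L1 were not analysed here.

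CCL5 rose at both doses in HL-60 cells. It had 19.4 and 21.1 CPM in the controls, 48.9 and 52.1 CPM at 112.7 pM and 126 and 119.5 CPM at 500 pM. The log2 fold changes were 2.59 (SE 0.056, adjusted p = 1.84e-17, edgeR) at 500 pM and 1.32 (SE 0.061, adjusted p = 2.14e-11) at 112.7 pM. CCL5 was the one gene of the 10 that was called at over 2-fold at the low dose in each alternative and with each library left out in turn. At the low dose it thus lay just below the 55.3 and 53.3 CPM of Molm-14 controls.

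CCL22 and CXCL16 were low in HL-60 controls and, with CCL3, had the 3 largest fold changes among the members at 500 pM, CXCL10 aside. CCL22, a product of macrophages and dendritic cells, had 7 and 21 reads in the controls, 13 and 21 reads at 112.7 pM and 66 and 124 reads at 500 pM (log2 fold change 3.58, SE 0.332, adjusted p = 6.71e-08, edgeR). CXCL16 had 1 and 2 reads in the controls, 4 and 5 reads at 112.7 pM and 26 and 50 reads at 500 pM (5.33, SE 0.466, adjusted p = 5.52e-09). With counts thinned to the smallest library, CXCL16 gave 7.64 at 500 pM and 5.19 at 112.7 pM and CCL22 gave 4.21 and 1.90, and without control replicate 2 CCL22 gave 4.18 and 1.82. These folds rest on a few control reads. Both also passed at 112.7 pM, CCL22 at 1.22 (SE 0.423, adjusted p = 0.025) and CXCL16 at 2.38 (SE 0.765, adjusted p = 0.014). The low-dose calls rest on these few reads. That of CCL22 was lost with DESeq2 (adjusted p = 0.0682) and without control replicate 1 (0.91, adjusted p = 0.138), low-dose replicate 1 (1.29, adjusted p = 0.0577) or low-dose replicate 2 (1.12, adjusted p = 0.151), and that of CXCL16 without control replicate 2 or either low-dose library (2.30 to 2.57, adjusted p = 0.054 to 0.0616). MED11, the gene on the other strand of CXCL16, had 118 and 150 reads at 500 pM and 164 and 345 reads in the controls, and did not pass (log2 fold change −0.06, SE 0.136, adjusted p = 0.69).

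The CXC chemokines of neutrophils changed less. CXCL8 had 295 and 223 CPM in HL-60 controls, 217 and 294 CPM at 112.7 pM and 486 and 429.5 CPM at 500 pM. At 500 pM its log2 fold change was 0.82 (SE 0.112, adjusted p = 2.2e-06, edgeR), which is below 2-fold, with no overlap between 500 pM and control libraries. At 112.7 pM the libraries of CXCL8 overlapped the controls, and the change was −0.01 (SE 0.114, 95% interval −0.23 to 0.21). CXCL8 took 22.2% and 21.1% of the summed chemokine TPM at 500 pM, against 48.6% and 44.8% in the controls.

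CXCL2 had 10 and 17 reads in HL-60 controls, 3 and 10 reads at 112.7 pM and 14 and 21 reads at 500 pM. At 500 pM its scaled level was 0.655 and 0.645 CPM against 0.268 and 0.288 CPM in the controls (log2 fold change 1.20, SE 0.417, adjusted p = 0.0145, edgeR). This call was lost with DESeq2 (adjusted p = 0.0827) and without control replicate 1 (adjusted p = 0.0562), control replicate 2 (adjusted p = 0.0634) or high-dose replicate 2 (adjusted p = 0.0674). Its close relative CXCL3 had 15 and 27 reads at 500 pM and 9 and 19 reads in the controls (1.41, SE 0.447). CXCL1, whose promoter window resembles that of CXCL2, had 0 reads in all 6 HL-60 libraries, which allows up to 3 counts in each.

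At 112.7 pM, 5 of the 9 genes passed upwards in HL-60 cells and none downwards, and 3 (CCL5, CCL22 and CXCL16) were higher by over 2-fold. Among all genes tested 24.2% passed upwards and 27.4% downwards (51.7% in all), and 5.57% were higher and 0.291% lower by over 2-fold. The comparisons of the 2 doses share the control libraries. Set directly against 112.7 pM, the libraries at 500 pM had more RNA of every tested chemokine gene other than CXCL10, with 7 higher by over 2-fold, as were 8.15% of all genes tested. By adjusted p alone 25.9% of all genes tested were higher and 26.8% lower (52.6% in all). The log2 differences were 2.89 for CCL3 (SE 0.135), 2.95 for CXCL16 (SE 0.399), 2.37 for CCL22 (SE 0.325), 2.25 for CCL4 (SE 0.123), 1.97 for CCL2 (SE 0.061), 1.28 for CCL5 (SE 0.054) and 0.83 for CXCL8 (SE 0.114). That of CXCL2 (1.34, SE 0.482, adjusted p = 0.0262) was lost with DESeq2 (adjusted p = 0.115), when thinned to the smallest library (1.12, adjusted p = 0.0852), and without low-dose replicate 1 (0.94, adjusted p = 0.177), high-dose replicate 1 (adjusted p = 0.0665) or high-dose replicate 2 (adjusted p = 0.0894), and it was 2.14 without low-dose replicate 2.

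**Figure D2:**
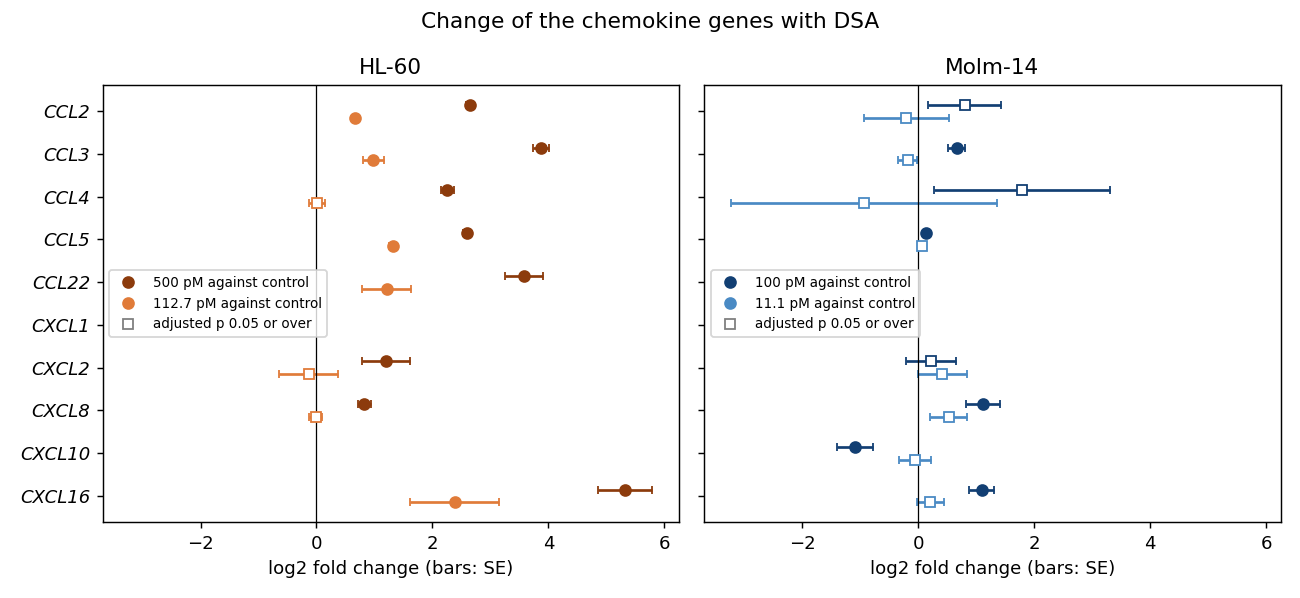
Log2 fold change of each chemokine gene against the controls of its line, with HL-60 cells on the left and Molm-14 cells on the right, and bars of 1 SE. Filled circles passed at an adjusted p under 0.05, open squares did not, and genes with a group at 0 reads are left out. CXCL16 (5.33) and CCL3 (3.87) have the largest values at 500 pM in HL-60 cells, and CXCL10 (−1.09) is the one passing value below 0, at 100 pM in Molm-14 cells.

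At 100 pM DSA, Molm-14 cells had modest changes in the same genes. Of the 9 tested, 4 passed upwards (CCL3, CCL5, CXCL8 and CXCL16) and 1 downwards (CXCL10), and 2 were higher and 1 lower by over 2-fold. Among all genes tested 22.9% passed upwards and 21.9% downwards (44.8% in all), and 3.29% were higher and 0.73% lower by over 2-fold. The median log2 fold change of the 8 genes with a read in both groups was 0.73, beside 0.004 for all genes tested. The sum of the 10 genes was 89.8 and 83.2 TPM at 100 pM and 72.6 and 71.6 TPM in the controls.

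CCL3 had 5.85 and 5.50 CPM in Molm-14 controls, 5.16 and 4.86 CPM at 11.1 pM and 9.58 and 8.40 CPM at 100 pM. Its log2 fold change at 100 pM was 0.67 (SE 0.147, adjusted p = 0.0011, edgeR), with no overlap. Its copy CCL3L3 had 357 and 327 reads at 100 pM and 178 and 162 reads in the controls (0.92, SE 0.17). CCL5, the leading chemokine of this line, had 61.3 and 57.7 CPM at 100 pM and 55.3 and 53.3 CPM in the controls. Its change of 0.13 (SE 0.054, adjusted p = 0.049) was at the edge of the threshold and was lost with DESeq2 (adjusted p = 0.134), without control replicate 1 (0.16, adjusted p = 0.0854), control replicate 2 (0.11, adjusted p = 0.248) or high-dose replicate 1 (0.09, adjusted p = 0.332).

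CXCL8 had 3.16 and 4.99 CPM in Molm-14 controls, 6.26 and 5.60 CPM at 11.1 pM and 9.33 and 8.52 CPM at 100 pM. Its log2 fold change at 100 pM was 1.12 (SE 0.293, adjusted p = 0.00414, edgeR), with no overlap. The 2 control libraries differed more from each other than the treated ones did, and the call was lost without control replicate 1 (0.84, adjusted p = 0.0678) and with limma-voom (adjusted p = 0.0549). CXCL16 had 47 and 56 reads in the controls, 67 and 61 reads at 11.1 pM and 138 and 97 reads at 100 pM (1.09, SE 0.214, adjusted p = 3.62e-04). It passed under each alternative that tested it. With a mean of at least 50 counts CXCL16 was not tested, and without high-dose replicate 1 its change was below 2-fold (0.88, adjusted p = 0.0175). Its neighbour MED11 had 386 and 373 reads at 100 pM and 425 and 437 reads in the controls (−0.27, SE 0.107, adjusted p = 0.0446).

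CXCL10, the interferon-induced ligand of CXCR3, was the chemokine gene that fell. It had 56 and 46 reads in Molm-14 controls, 45 and 61 reads at 11.1 pM and 29 and 22 reads at 100 pM, with no overlap between 100 pM and the other groups. The log2 fold change was −1.09 (SE 0.309, adjusted p = 0.00786, edgeR). It was lost with DESeq2 (adjusted p = 0.094) and without control replicate 1 (−0.90, adjusted p = 0.0893) or high-dose replicate 2 (−0.97, adjusted p = 0.0748). ART3, which spans CXCL10 on the other strand, moved the same way, with 55 and 59 reads at 100 pM and 80 and 84 reads in the controls (−0.61, SE 0.234, adjusted p = 0.0438), and had 0 reads in every HL-60 library. CXCL11, a further ligand of CXCR3, had 28 and 20 reads at 100 pM and 53 and 46 reads in the controls (−1.14, SE 0.307, adjusted p = 0.00571). The part of ART3 in the CXCL10 counts was not tested.

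The other members were near or below detection in Molm-14 cells. CCL2 had 16 and 12 reads at 100 pM and 10 and 5 reads in the controls, higher in both treated libraries but not past the test (log2 fold change 0.80, SE 0.624, adjusted p = 0.326). CCL4 had 7 and 1 reads at 100 pM and 1 and 1 in the controls (adjusted p = 0.368), and CXCL2 had 17 and 14 reads against 16 and 9 (adjusted p = 0.736), both overlapping. CCL22 had 0 reads in all 6 Molm-14 libraries. CXCL1 had 1 read in control replicate 2 and in low-dose replicate 1, and 0 in the others.

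None of the 9 genes passed at 11.1 pM in Molm-14 cells with edgeR, where an unadjusted p under 0.05 was not reached by any of them either. Of all genes tested 0.969% passed upwards and 0.238% downwards (1.21% in all), and 0.00745% were higher and 0.0149% lower by over 2-fold. The largest value among members with more than 10 reads in a library was that of CXCL8 (log2 fold change 0.53, SE 0.319, adjusted p = 0.557), higher in both treated libraries. Without a filter on low counts CXCL8 passed (0.52, adjusted p = 4.65e-04). The other alternatives gave no call. Set against 11.1 pM, the libraries at 100 pM had higher CCL3 (0.85, SE 0.148, adjusted p = 1.54e-04) and CXCL16 (0.89, SE 0.207, adjusted p = 0.0022) and lower CXCL10 (−1.03, SE 0.308, adjusted p = 0.013). CXCL8 did not pass (0.60, SE 0.266, adjusted p = 0.0871), but did with no filter (adjusted p = 1.86e-09) or with only the groups compared (adjusted p = 6.81e-05). Only CXCL10 was past 2-fold, where 2.26% of all genes tested were higher and 0.618% lower by over 2-fold, and 19.6% and 18.5% by adjusted p alone (38.1% in all). The CXCL16 difference was lost without high-dose replicate 1 (0.68, adjusted p = 0.0705), and that of CXCL10 without high-dose replicate 2 (−0.91, adjusted p = 0.107), without low-dose replicate 2 (−0.87, adjusted p = 0.122) and with DESeq2 (adjusted p = 0.137).

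**Figure D3:**
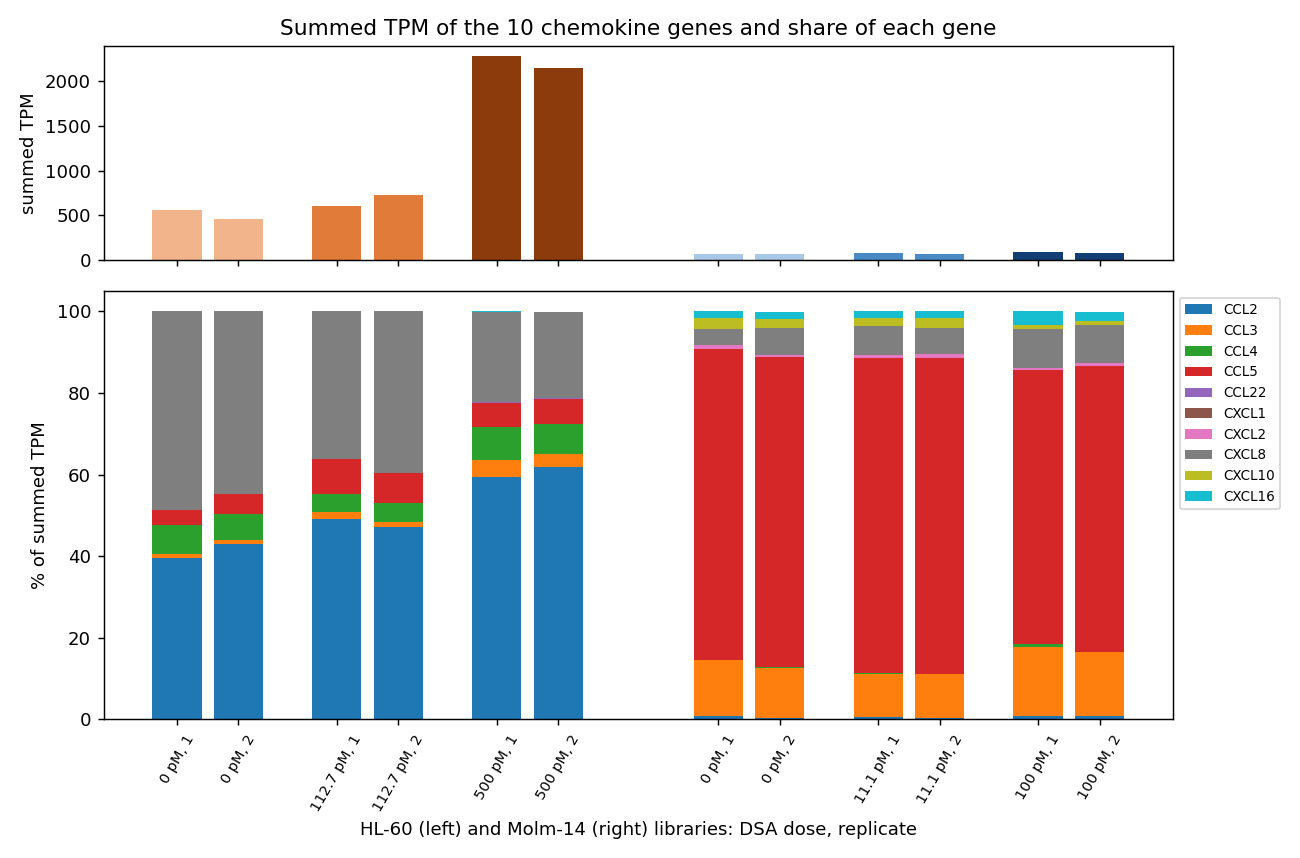
Summed TPM of the 10 chemokine genes in each library (top, linear axis from 0) and the percent of that sum held by each gene (bottom), with HL-60 libraries on the left and Molm-14 libraries on the right. The sum reaches 2281 and 2152 TPM in HL-60 cells at 500 pM, where CCL2 holds the largest share, while CCL5 holds between 67.1% and 77.3% in every Molm-14 library.

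The change at the high dose was compared between the lines as an interaction, HL-60 minus Molm-14. It was past the test and over 2-fold for CCL5 (2.46, SE 0.078, adjusted p = 1.6e-14, edgeR), CCL3 (3.21, SE 0.207, adjusted p = 2.84e-10), CXCL16 (4.24, SE 0.566, adjusted p = 3.77e-06) and CCL2 (1.84, SE 0.709, adjusted p = 0.0342), 4 genes with a value, where 10.1% of all genes tested were higher and 2.21% lower by over 2-fold, and 25.1% and 30.3% by adjusted p alone (55.4% in all). CXCL10 also passed, as the fifth, but on the 3 HL-60 reads. The doses were 500 pM in HL-60 and 100 pM in Molm-14 cells. The CCL2 interaction was lost with limma-voom (adjusted p = 0.0676), when thinned to the smallest library (1.80, adjusted p = 0.0852), and without control replicate 1 (1.22, adjusted p = 0.379), high-dose replicate 1 (adjusted p = 0.0508) or high-dose replicate 2 (1.71, adjusted p = 0.0783) of Molm-14. The test was not passed by CXCL8 (−0.30, SE 0.319, 95% interval −0.93 to 0.33, adjusted p = 0.451), CXCL2 (0.99, SE 0.602, 95% interval −0.19 to 2.17, adjusted p = 0.176) or CCL4 (0.47, SE 2.485, adjusted p = 0.911), the last resting on the few Molm-14 reads. Without a filter on low counts CXCL8 did pass (−0.31, SE 0.111, adjusted p = 0.0171). Thinned to the smallest library, the value of CXCL16 was 6.52.

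At the high doses CCL3 and CCL5, lower in HL-60 than in Molm-14 controls, were higher in HL-60. CCL3 stood at 49.1 and 36.9 CPM in high-dose HL-60 and 9.58 and 8.40 CPM in high-dose Molm-14 libraries, and CCL5 at 126 and 119.5 CPM against 61.3 and 57.7 CPM. CXCL16 stayed lower in HL-60, at 1.22 and 1.54 CPM against 3.82 and 2.92 CPM in Molm-14. CXCL10 stayed at 1 and 2 reads in HL-60 against 29 and 22 in Molm-14. These values across lines at unequal doses were set side by side without a test.

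As a description over the 12 libraries, which share 2 lines and so cannot count as independent, log2 CPM of CCL2, CCL4 and CXCL8 went together (Pearson r = 0.99 or more for each pair), as all 3 are high in HL-60 and low in Molm-14 cells. CCL3 went with CCL5 (r = 0.88), and CXCL10 ran opposite to CXCL8 (r = −0.97). The tested genes most like each member by the same measure were TOR1A for CCL2 (r = 0.999), RGS3 for CCL3 (0.990), CCL4L2 for CCL4 (0.997), SULT1A1 for CCL5 (0.992) and CYP1A1 for CCL22 (0.999). For the CXC members they were TMED4 for CXCL8 (0.997), BTG2 for CXCL16 (0.996), NXPH4 for CXCL10 (0.996) and GPR137C for CXCL2 (0.897). CCL1 was also among the 3 genes most like CCL22 (0.994).

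The rest of the chemokine family was mostly silent. Of 34 other chemokine genes, 7 were tested, and of these 6 passed upwards and none downwards at 500 pM in HL-60 cells, and 1 upwards and 1 downwards at 100 pM in Molm-14 cells. Among all genes tested 35.8% passed upwards and 37.8% downwards in HL-60 cells, and 22.9% and 21.9% in Molm-14 cells. CCL1, a ligand of CCR8, had 264 and 334 reads at 500 pM and 17 and 25 reads in HL-60 controls (log2 fold change 4.68, SE 0.226, adjusted p = 7.66e-12, edgeR). CCL23, CCL20 and CCL24 also rose in HL-60 cells (3.11, SE 0.291, 2.36, SE 0.263, and 3.82, SE 0.64). In Molm-14 cells CCL23 rose by 1.09 (SE 0.359, adjusted p = 0.0195) and CXCL11 was the gene that fell. CCL28, named after its values were seen, was not silent in Molm-14 cells. Its mean was 9.87 TPM in the controls, beside 9.37 TPM for CCL3, and it did not pass at 100 pM (−0.05, SE 0.083, adjusted p = 0.705, edgeR). In HL-60 cells CCL28 was at 0 TPM in the controls and at both doses.

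Receptors for these ligands were measured in the same cells. Of 22 receptor genes 12 were tested, and 11 passed upwards and none downwards at 500 pM in HL-60 cells (median log2 fold change 2.22), and 6 upwards and none downwards at 100 pM in Molm-14 cells (median 0.62). Of all genes tested 35.8% passed upwards and 37.8% downwards in the HL-60 comparison, and 22.9% and 21.9% in the Molm-14 comparison. CCR1, a receptor of CCL3 and CCL5, rose in HL-60 cells (1.84, SE 0.067) and in Molm-14 cells (0.56, SE 0.073), as did CXCR3, the receptor of CXCL10 (2.97, SE 0.116, and 1.25, SE 0.151). CXCR2, the receptor of CXCL8 and CXCL2, rose by 0.58 (SE 0.081) in HL-60 and by 1.19 (SE 0.125) in Molm-14 cells. CCR2, the receptor of CCL2, is named as the partner of a member after its values were seen. CCR2 rose by 1.90 (SE 0.187) in HL-60 and 0.73 (SE 0.116) in Molm-14 cells. CCR4, the receptor of CCL22, and CXCR6, the receptor of CXCL16, had at most 2 and 1 reads in a library and were not tested.

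**Figure D4:**
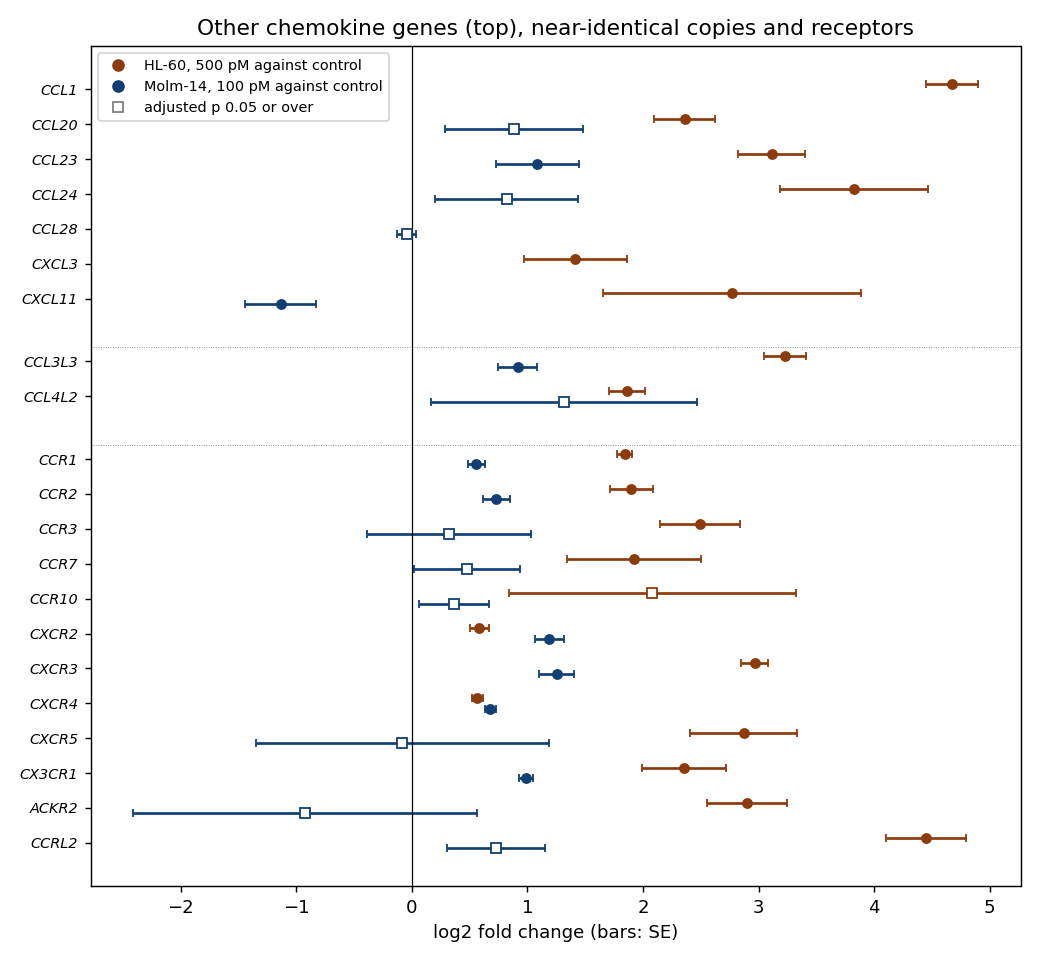
Log2 fold change at the high dose for the other tested chemokine genes (top), the near-identical copies (middle) and the tested receptors (bottom), with bars of 1 SE. HL-60 cells at 500 pM are in brown and Molm-14 cells at 100 pM in blue, filled where the adjusted p was under 0.05, and genes with a group at 0 reads are left out for that line. CCL1 (4.68) and CCRL2 (4.45) are highest in HL-60 cells, and CXCL11 (−1.14) is the passing value below 0 in Molm-14 cells.

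Genes that act on chemokine proteins or their promoters were read from lists. Of 6 tested proteases that cut chemokines, 2 rose and 3 fell at 500 pM in HL-60 cells, where MMP9, which trims CXCL8, rose by 3.51 (SE 0.084), and the granule proteases PRTN3, ELANE and CTSG fell (−2.32, SE 0.051, −1.78, SE 0.048, and −0.90, SE 0.038). ADAM10, a sheddase of CXCL16, rose by 0.22 (SE 0.056) at 100 pM in Molm-14 cells and did not pass in HL-60 cells (0.10, SE 0.058, adjusted p = 0.132). Of 14 NF-kB subunits and regulators, 9 rose and 4 fell in HL-60 cells (median 0.36), where 35.8% of all genes tested rose and 37.8% fell. The largest rise was that of NFKBIZ (3.55, SE 0.305), with 44 and 56 reads at 500 pM and 5 and 10 reads in the controls, and those with the smallest p were NFKB2 (2.76, SE 0.064), RELB (1.97, SE 0.106), BCL3 (2.32, SE 0.135) and TNFAIP3 (1.20, SE 0.059), an inhibitor of the pathway. In Molm-14 cells 6 rose and 3 fell (median 0.06), where 22.9% of all genes tested rose and 21.9% fell, with RELB at 0.72 (SE 0.134), BCL3 at 0.71 (SE 0.165), NFKBIZ at 0.95 (SE 0.11) and TNFAIP3 lower (−0.32, SE 0.06).

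Of 7 tested inflammatory cytokines, 6 rose and none fell in HL-60 cells (IL1B by 2.11, SE 0.106, and IL1A by 3.64, SE 0.34), and 3 rose and 1 fell in Molm-14 cells (IL1B by 0.85, SE 0.235). TNF, an inducer of many of these chemokines, did not pass in either line (−0.14, SE 0.155, adjusted p = 0.439, in HL-60 and 0.01, SE 0.177, adjusted p = 0.995, in Molm-14) and is named after its values were seen. Of 10 interferon regulatory factors and STATs, 9 rose and 1 fell in HL-60 cells, among them IRF7 (1.65, SE 0.098) and STAT2 (1.19, SE 0.055), and 5 rose and none fell in Molm-14 cells, among them STAT2 (0.68, SE 0.05) and IRF9 (0.84, SE 0.176). Of 8 genes of cytosolic nucleic acid sensing, 5 rose and 1 fell in HL-60 and 3 rose and none fell in Molm-14 cells. Over all genes tested 35.8% rose and 37.8% fell in HL-60 cells, and 22.9% rose and 21.9% fell in Molm-14 cells. In either direction 73.6% of all genes passed in HL-60 and 44.8% in Molm-14 cells, against 6 and 3 of these 8 sensing genes.

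Markers of myeloid stage also changed at the high doses. Among all genes tested 35.8% passed upwards and 37.8% downwards at 500 pM in HL-60 cells. At 100 pM in Molm-14 cells 22.9% passed upwards and 21.9% downwards. Of 13 monocyte and macrophage markers 9 were tested, and all 9 rose at 500 pM in HL-60 cells (median log2 fold change 2.14), with a summed level of 501 and 500.4 CPM at 500 pM and 153 and 157 CPM in the controls. In Molm-14 cells 5 rose and 1 fell (median 0.95), and the sum was 1215 and 1207 CPM at 100 pM against 566 and 546 CPM in the controls. CD68 and S100A9 rose in HL-60 (2.09, SE 0.052, and 2.32, SE 0.058) and in Molm-14 cells (0.95, SE 0.043, and 1.23, SE 0.083), and CD14, named after its values were seen, rose by 4.45 (SE 0.159) in HL-60 cells, with 444 and 752 reads at 500 pM and 41 and 55 in the controls, while FCGR3A was at 0 and MRC1 at no more than 1 read in every library. All 6 granulocyte precursor markers fell in HL-60 cells (median −1.18), with sums of 6776 and 6787 CPM at 500 pM and 18580 and 18840 CPM in the controls. In Molm-14 cells 2 rose and 1 fell, and the sums were 4235 and 4110 CPM against 3543 and 3652 CPM.

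Of 5 markers of leukocytes and myeloid cells, 2 rose and 1 fell in HL-60 and 4 rose and none fell in Molm-14 cells, where 73.6% and 44.8% of all genes tested passed in either direction. Of 10 lymphocyte markers 4 were tested and rose in HL-60 cells (median log2 fold change 2.46, beside 2.14 for the monocyte and macrophage markers). The sums of the lymphocyte list were 76.2 and 71.3 CPM at 500 pM and 15.1 and 15.9 CPM in the controls. In Molm-14 cells 1 of the 4 rose, with sums of 40.4 and 38.7 CPM against 28.0 and 28.1 CPM. NKG7 made up most of both sums. Besides NKG7 (2.37, SE 0.063), CD3E rose by 2.97 (SE 0.333), CD2 by 2.57 (SE 0.397) and CD79A by 1.12 (SE 0.182) in HL-60 cells, with 49 and 86, 40 and 48, and 111 and 185 reads at 500 pM, against 13 and 17, 7 and 20, and 95 and 146 reads in the controls. GNLY, MS4A1 and KLRD1 had at most 5 reads in a library. Of 9 endothelial, fibroblast and epithelial markers 4 were tested, and 4 rose in HL-60 (median 2.15) and 1 in Molm-14 cells. The sums of this list were 46.1 and 44.5 CPM at 500 pM and 10.3 and 9.28 CPM in HL-60 controls. In Molm-14 cells they were 162.0 and 162.1 CPM at 100 pM and 95.9 and 90.0 CPM in the controls. PECAM1, which leukocytes also express, rose by 2.24 (SE 0.059) in HL-60 and by 1.20 (SE 0.043) in Molm-14 cells. COL1A1 (2.26, SE 0.562), KRT8 (1.99, SE 0.272) and KRT18 (2.06, SE 0.815) also rose in HL-60 cells, with 9 and 13, 75 and 72, and 3 and 7 reads at 500 pM, against 1 and 7, 37 and 29, and 1 and 3 reads in the controls. In Molm-14 cells KRT18 had 974 to 1169 reads in every library and did not pass, and DCN was at 0 and CDH5 at no more than 2 reads in every library. The part of any of these markers in the chemokine levels was not tested.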

How the data were processed

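RNA sequencing libraries of HL-60 and Molm-14 cells, 2 in each of 6 groups taken from the labels, were analysed. The authors trimmed reads (Trim Galore 0.60), aligned them to hg38 (STAR 2.7) and estimated expected counts and TPM per gene (RSEM 1.31), by the submitters' processing notes, on GENCODE release 31. The deposited expected counts are neither filtered nor scaled, and the deposited TPM values, scaled to transcript length and library total by the authors, were used for levels and shares only. The sources used here do not state whether counting was stranded.

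Identifiers were looked up in GENCODE release 44 (60261 of 60754 matched), and 45 pseudoautosomal copies were dropped. After rounding to whole numbers, the expected counts deposited by the authors summed to 21177424 to 63927449 per library. edgeR 4.0.16 in R 4.3.3 kept 13422 protein-coding genes of level 1 or 2 (filterByExpr over 6 groups), scaled by TMM, fitted 1 mean per group over all 12 libraries with glmQLFit and tested with glmQLFTest. P-values were adjusted by Benjamini-Hochberg over all genes tested. Genes passed at an adjusted p under 0.05, and calls at over 2-fold also needed that fold change. The SE is the log2 fold change over the square root of F, and 95% intervals are 1.96 SE on each side. Counting floors of 3 counts in a library at 0 cover counting error only. The code was tested on simulated counts.

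All 10 chemokine genes and their copies are named. Of each gene list up to 4 genes with the smallest p at the high dose of either line are named, and the 3 tested genes with the highest r to a member. Members, lists and tests were chosen with earlier results of these data known. Promoter sequences are from RefSeq. Same-numbered replicates did not deviate together over all genes tested (correlations −0.07 to 0.07). No pairing by number was therefore seen or used in the main test, but such correlations cannot exclude it. Replicates differed by more than sampling noise (chi-square per degree of freedom 2.23 to 3.81). Alternatives were DESeq2 1.42.0, limma-voom (limma 3.58.1), RLE or total-count scaling, no filter or a minimum mean of 50 counts, genes of every type, only the groups compared, thinning to the smallest library, copies summed, the replicate block, no fold threshold and each library left out. A receptor gene of the fixed lists is not reported here.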

Additional observations from a re-analysis of the deposited data

Results flagged for a closer look

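The change of 4 chemokine genes at the high dose differed between the lines by the test of the difference itself (edgeR, adjusted over all genes tested). The difference of the log2 fold changes, HL-60 less Molm-14, was 4.24 for CXCL16 (adjusted p = 3.77e-06), 3.21 for CCL3 (adjusted p = 2.84e-10), 2.46 for CCL5 (adjusted p = 1.6e-14) and 1.84 for CCL2 (adjusted p = 0.0342). For these genes each of the 2 high-dose HL-60 libraries stood above both controls. Dose, medium and serum cannot be told apart from the line. The CCL2 value was lost without control replicate 1 of Molm-14 (1.22, adjusted p = 0.379), which held 10 of the 15 control reads.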

How the results depend on the processing

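Of single-gene results under settings that kept every library, 610 kept direction and side of the threshold, 15 fell below it, 5 passed it anew and 14 changed sign. With 1 library left out, 235 kept both, 24 fell below it and 13 changed sign. No value that changed sign had passed the test. Genes called at over 2-fold numbered 2 higher in Molm-14 at 100 pM, against 1 with limma-voom, with a mean of at least 50 counts or thinned, 4 with no fold threshold and 1 to 2 with a library left out, and 1 lower, against 0 with DESeq2 or the mean of 50 and 0 to 1 with a library left out. In HL-60 at 500 pM 8 were higher, against 4 with the mean of 50, which tests fewer genes, and 6 without control replicate 2 or high-dose replicate 2. At 112.7 pM 3 were higher, against 5 with no fold threshold and 1 to 3 with a library left out (1 without low-dose replicate 2). Between Molm-14 doses 0 were higher, against 1 with no filter, 2 with no fold threshold and 0 to 1 with a library left out, and 1 lower, against 0 with DESeq2 or the mean of 50 and 0 to 1 with a library left out. Between HL-60 doses 7 were higher, against 4 with the mean of 50, and between the controls of the lines 3 were lower, against 1 with it. For the line difference at the high dose 5 were higher, against 3 with the mean of 50 or thinned.

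Signs changed thinned for CCL2 (0.17) and CXCL10 (0.05) at 11.1 pM, CXCL2 at 112.7 pM (0.22) and CXCL2 between Molm-14 doses (0.60). With copies summed they changed for CCL3 at 11.1 pM (0.21), CCL4 at 112.7 pM (−0.019, and −0.003 with all gene types) and CXCL2 between controls (0.50). CXCL8 at 112.7 pM gave 0.031 with DESeq2, 0.008 with limma-voom, 0.042 with RLE, 0.064 with total counts, 0.016 with the mean of 50 and 0.001 thinned. Leaving out a library gave −0.026 to 2.52 for CCL4 and −0.18 to 0.72 for CXCL2 in Molm-14 at 100 pM, −0.66 to 0.41 for CCL2 and −0.23 to 0.13 for CXCL10 at 11.1 pM, −0.21 to 0.21 for CCL4, −0.93 to 0.26 for CXCL2 and −0.25 to 0.20 for CXCL8 at 112.7 pM, −0.85 to 0.055 for CXCL2 between controls and −0.27 to 2.28 for CCL4 between the lines' changes. The cause was not tested. With total-count scaling the median of all genes was 0.176 at 500 pM (0 with TMM), 0.112 between HL-60 doses (0.002 with TMM) and 0.127 for the line difference (−0.022 with TMM), and the direction of every member that had passed stayed. With the replicate block, CCL5 in Molm-14 at 100 pM kept its change (0.13, adjusted p = 0.0541) and lost its call, the one call the block changed. Depth limits CXCL1, CXCL10 in HL-60, and CCL4 and CCL22 in Molm-14 cells, where a few reads decide.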
